A study of Mus musculus with 18 samples.

Results

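Activating Notch in basal keratinocytes of mouse skin changed RNA in the epidermis, where the transgene is expressed, and in the dermis beneath it, and the 2 layers were compared here gene by gene. The measure was a difference of differences: the log2 change between transgenic and wild-type skin in dermis minus the same change in epidermis. A log2 difference of 1 is a doubling of signal, a positive value means that the dermal change lay above the epidermal one, and a negative value means that it lay below. It used the 12 dermis and epidermis arrays among 18 arrays in all, 3 for each of 4 groups. The groups were epidermis from K14NICDER transgenic mice, epidermis from Wild type mice, dermis from K14NICDER transgenic mice and dermis from Wild type mice. Per the labels all were female C57Bl6xCBA F1 mice, 7 weeks old when treatment began, and every group, the controls included, received 4OHT (4-hydroxytamoxifen) for 14 days. The other 6 arrays, of whole skin from the same 2 genotypes, were read as a separate preparation.

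Notch is a receptor that is cut when a ligand on a neighbouring cell binds it, and its intracellular domain then enters the nucleus and turns the DNA-binding protein RBPJ into an activator. In the epidermis Notch signalling moves basal keratinocytes towards differentiation, and it also takes part in hair follicle maintenance and in signals from keratinocytes to dermal and immune cells. In this line the keratin 14 promoter drives the intracellular domain in a form that stays inactive until 4OHT binds its receptor part, in basal keratinocytes and the outer cells of the follicle. A change in the dermis arrays is therefore a change in a layer whose fibroblasts and vessels do not use that promoter, although follicle fragments stay in the dermis when the layers are parted. In bulk tissue of this kind, fewer cells of a type and less RNA per cell cannot be told apart. Nothing in the labels says whether the samples of a group came from separate animals, so every p-value measures the spread between these samples, which may be technical.

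The layers carried the markers of their labels, with keratinocyte RNA in both. Of 29 tested fibroblast and matrix genes, 23 were higher in wild-type dermis than in wild-type epidermis and 0 were lower (limma, adjusted p under 0.05), against 12% and 6.21% of the 13797 genes tested. Of 29 differentiated keratinocyte genes, 19 were lower in wild-type dermis and 1 was higher. The summed linear signal of the 12 basal keratinocyte genes ran from 14729 to 17303 in wild-type dermis and from 18215 to 23650 in wild-type epidermis, so the dermis arrays held basal keratinocyte RNA at a level not far below that of the epidermis arrays. The summed signal of 16 skeletal muscle genes ranged from 650 to 29776 over the 12 arrays without regard to genotype. Array values differed most among the 3 transgenic dermis arrays: their residual SD over the tested genes was 0.730, 0.494 and 0.716 for replicates 1, 2 and 3, against 0.409 to 0.466 in wild-type dermis. Replicates 1 and 3 deviated from their group mean in opposite directions, with a correlation of -0.77 across genes. Deviations of 3 arrays from their own mean sum to 0, so negative values arise by construction. Pairs within a group ran from -0.32 to this value. These data do not show which of replicates 1 and 3 is the atypical one. The Notch1 probe set used gave a genotype effect of -0.28 in epidermis and -0.06 in dermis and did not pass the test in either layer. Another Notch1 probe set gave -0.72 in epidermis and 0.016 in dermis. Either may or may not lie in the part of the gene that the transgene carries, so they are no check on the transgene.

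The test called 3 genes for a difference between the layers, which is 0.0217% of the 13797 tested (limma, Benjamini-Hochberg adjusted p under 0.05). All 3 lay on the positive side. Krt15 and Gem fell in epidermis alone, and Prr9 rose in dermis alone. Here a layer counts as changed when its own unadjusted p is under 0.05. Unequal changes of the same direction were called for 0 genes, and opposite changes for 0 genes. At an unadjusted p under 0.05, 1114 genes (8.07%) differed between the layers, 497 on the positive side (3.6%) and 617 on the negative side (4.47%). The median half-width of the 95% interval of a gene's difference was 1.24 on the log2 scale, so for most genes a difference of a doubling between the layers was within the error.

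**Figure D1:**
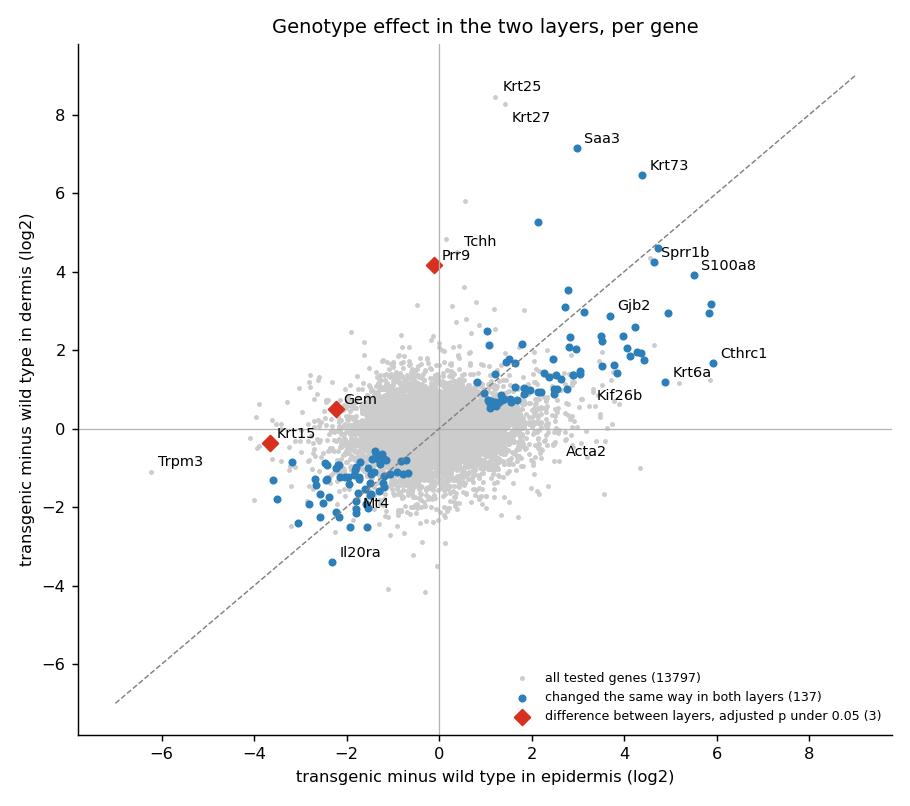
Each point is one of 13797 tested genes, with its transgenic minus wild-type change in epidermis on the x axis and in dermis on the y axis, both in log2 units; the dashed line marks equal change. Red diamonds are the 3 genes called for the difference between layers, of which Krt15 and Gem lie far left near a dermal change of 0 and Prr9 lies high near an epidermal change of 0; the 137 blue points are genes that changed the same way in both layers.

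Krt15 is a keratin of basal keratinocytes and of the stem cells of the follicle bulge. Its log2 signal was 11.70, 11.54 and 11.65 in the 3 wild-type epidermis arrays and 8.20, 7.04 and 8.67 in the transgenic ones. In dermis it was 11.80, 12.15 and 11.62 in wild type and 11.40, 11.39 and 11.67 in transgenic arrays. Every transgenic epidermis array was below every other array, while the dermis groups overlapped. Krt15 fell by 3.66 in epidermis (SE 0.34, adjusted p = 0.000142), its dermal change was -0.37 (SE 0.34, adjusted p = 0.995), and the difference was 3.29 (SE 0.49, 95% interval 2.25 to 4.34, adjusted p = 0.0421; limma, n = 3 arrays per group). In whole skin its change was -0.16 (SE 0.11) and did not pass the test (limma, adjusted p = 0.496).

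Gem encodes a small GTP-binding protein whose expression mitogens induce. Wild-type epidermis gave 7.71, 7.33 and 7.50, and transgenic epidermis gave 4.98, 5.10 and 5.76. Wild-type dermis gave 7.22, 7.21 and 7.33, and transgenic dermis gave 7.40, 7.95 and 7.87. The epidermis groups were wide apart, and the dermis groups were narrowly apart in the other direction. Gem fell by 2.23 in epidermis (SE 0.28, limma adjusted p = 0.000941), its dermal change of 0.49 did not pass the test (adjusted p = 0.995), and the difference was 2.72 (SE 0.40, 95% interval 1.88 to 3.57, adjusted p = 0.0421). Its whole skin change was 0.09 (SE 0.12).

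Prr9 encodes a proline-rich protein of the epidermal differentiation complex, a cluster of barrier and hair genes. Its signal in wild-type dermis was 4.80, 5.02 and 4.30, and in transgenic dermis 9.72, 8.61 and 8.28. Wild-type epidermis gave 6.24, 7.48 and 7.96, and transgenic epidermis gave 7.04, 7.03 and 7.31. All 3 transgenic dermis arrays were above the other 9 arrays, and the epidermis groups overlapped. Prr9 rose by 4.16 in dermis (SE 0.44, limma adjusted p = 0.00139) against an epidermal change of -0.10 (adjusted p = 0.918), a difference of 4.26 (SE 0.62, 95% interval 2.92 to 5.61, adjusted p = 0.0421). In whole skin it read 6.02, 7.86 and 6.34 in wild type and 8.77, 7.67 and 5.61 in transgenic arrays, which overlap. Each of the 3 genes had 1 probe set that named it alone.

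**Figure D2:**
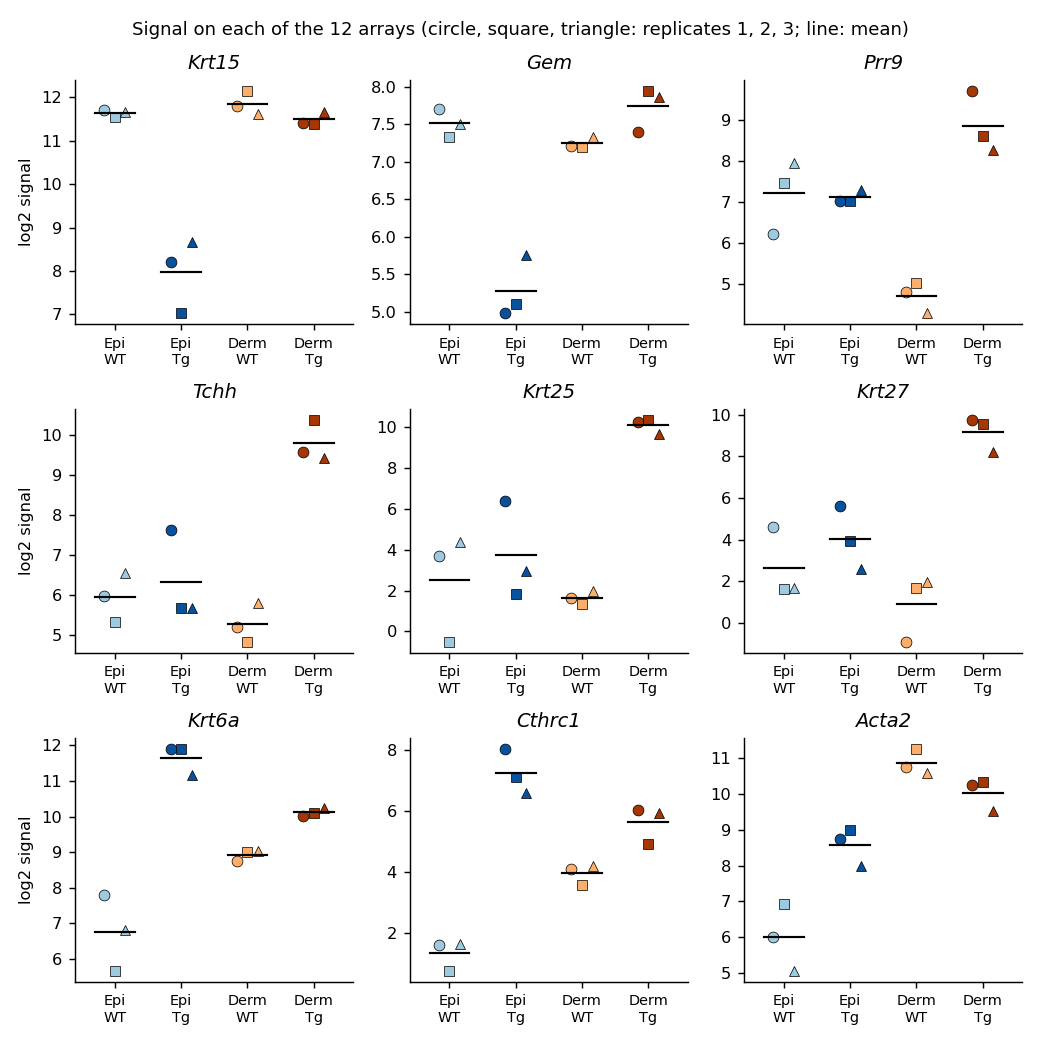
Log2 signal of 9 genes on each of the 12 arrays (Epi, epidermis; Derm, dermis; WT, wild type; Tg, transgenic), with symbols for the replicate numbers and a line at the mean of 3 arrays; each panel has its own y axis, which does not start at 0. Krt15 and Gem are low in transgenic epidermis alone, Prr9, Tchh, Krt25 and Krt27 are high in transgenic dermis alone, and Krt6a and Cthrc1 are higher in transgenic arrays of both layers with the wider gap in epidermis.

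Prr9 is among the genes listed here for the inner root sheath, a list written with earlier results of these data known. Several of these genes rose in dermis, while others, such as Gata3, did not. The inner root sheath is the layer of the hair follicle that moulds the growing hair shaft, and it is made in the growth phase of the hair cycle. The sequences of the 250 bases before the start of 4 of these genes are given, because the 4 had the same pattern across the groups: Prr9 and Tchh from chromosome 3, and Krt25 and Krt27 from chromosome 11. They are from RefSeq on GRCm38.p6, 5′ to 3′ on the gene's own strand, and capitals mark a match to a motif described after them.
Prr9, chr3:92123948-92124197, minus strand: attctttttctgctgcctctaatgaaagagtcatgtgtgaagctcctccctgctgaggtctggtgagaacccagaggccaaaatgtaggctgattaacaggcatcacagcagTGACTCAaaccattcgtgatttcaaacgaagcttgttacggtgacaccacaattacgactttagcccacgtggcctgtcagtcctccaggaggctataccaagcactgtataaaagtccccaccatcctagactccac
Tchh, chr3:93442080-93442329, plus strand: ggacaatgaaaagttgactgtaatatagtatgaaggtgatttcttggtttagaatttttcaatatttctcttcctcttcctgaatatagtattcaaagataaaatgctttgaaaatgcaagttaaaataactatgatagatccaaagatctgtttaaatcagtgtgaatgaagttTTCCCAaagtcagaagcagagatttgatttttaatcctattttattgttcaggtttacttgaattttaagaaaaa
Krt25, chr11:99322952-99323201, minus strand: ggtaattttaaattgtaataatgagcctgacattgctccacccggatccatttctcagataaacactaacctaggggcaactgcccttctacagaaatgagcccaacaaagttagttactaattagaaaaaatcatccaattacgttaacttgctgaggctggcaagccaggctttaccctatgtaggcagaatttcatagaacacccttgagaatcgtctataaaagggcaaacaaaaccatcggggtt
Krt27, chr11:99351119-99351368, minus strand: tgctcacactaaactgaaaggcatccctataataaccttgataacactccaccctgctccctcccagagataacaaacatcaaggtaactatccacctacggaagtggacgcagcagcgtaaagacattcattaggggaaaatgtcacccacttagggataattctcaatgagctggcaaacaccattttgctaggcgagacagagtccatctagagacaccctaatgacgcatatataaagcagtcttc

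These windows were searched on both strands for TGGGAA, the core of the motif that RBPJ binds, and for TGANTCA, the AP-1 motif, which reads the same on both strands; the 2 motifs do not overlap in the windows shown. The Prr9 window held 1 AP-1 match, TGACTCA, the Tchh window held 1 RBPJ core match on the opposite strand, read as TTCCCA, and the Krt25 and Krt27 windows held no match to either set of letters. Over all 27025 promoters of the table, 21.5% held the RBPJ core and 6.87% held AP-1, and over the 11050 promoters that matched the 13797 tested genes the shares were 20.6% and 4.82%. Among the genes that changed the same way in both layers, 51 of the 72 higher genes matched a promoter, of which 11 held the RBPJ core (21.6%) and 9 held AP-1 (17.6%), and 56 of the 65 lower genes matched, of which 12 (21.4%) and 3 (5.36%) did. Of the genes called in epidermis, 19.2% of the 146 matched higher genes and 20% of the 120 matched lower genes held the RBPJ core, and 9.59% and 5.83% held AP-1. A match is a string of letters, and no binding was measured.

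Krt25 and Krt27 are keratins of the inner root sheath. Krt25 read 1.62, 1.34 and 1.98 in wild-type dermis and 10.26, 10.38 and 9.66 in transgenic dermis, and it read 3.69, -0.51 and 4.40 in wild-type and 6.41, 1.84 and 2.95 in transgenic epidermis. The transgenic dermis arrays stood above all others, and the epidermis groups overlapped. Krt25 rose by 8.45 in dermis (SE 1.18, limma adjusted p = 0.00747) and its epidermal change was 1.21 (SE 1.18, adjusted p = 0.611), but the difference of 7.24 (SE 1.67, 95% interval 3.67 to 10.82) was not called (adjusted p = 0.253). Krt27 read -0.91, 1.69 and 1.96 in wild-type and 9.77, 9.56 and 8.19 in transgenic dermis. It rose by 8.26 in dermis (limma adjusted p = 0.00289), with an epidermal change of 1.42 and a difference of 6.84 (SE 1.40, adjusted p = 0.177). The wild-type values of both keratins lie at the dim end of the scale, where these log2 signals scatter widely, so the size of the rise is imprecise. With 16 added to every linear signal, which damps dim values, the difference was 5.39 for Krt25 (limma adjusted p = 0.019) and 4.47 for Krt27 (adjusted p = 0.021), and both were called.

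Tchh encodes trichohyalin, which is cross-linked to the keratins of the inner root sheath. It read 5.21, 4.84 and 5.81 in wild-type and 9.58, 10.38 and 9.44 in transgenic dermis, and 5.99, 5.33 and 6.57 in wild-type and 7.62, 5.70 and 5.70 in transgenic epidermis. Tchh rose by 4.51 in dermis (SE 0.50, limma adjusted p = 0.00171), its epidermal change was 0.38 (adjusted p = 0.717), and the difference of 4.14 (SE 0.71) had an adjusted p of 0.0723. Krt71, a type II partner of the sheath keratins, rose by 5.79 in dermis (limma adjusted p = 0.0287) with an epidermal change of 0.57. Tchhl1, a relative of trichohyalin, had a dermal change of 4.84 (SE 0.95), and Krt28 had one of 1.84 (SE 0.54), and neither passed the test in dermis. Their epidermal changes were 0.15 and -0.88. Krt73, another type II sheath keratin, rose in both layers, by 6.45 in dermis and 4.39 in epidermis (limma adjusted p = 0.00632 and 0.0163).

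Of 13 genes listed for the inner root sheath, 9 were tested, 3 (Krt26, Krt72 and Padi3) were below the filter on low signal, and Krt74 had no probe set named for it alone. Most of the 9 passed that filter through the transgenic dermis arrays, so their number is no support. The 3 untested genes had dermal changes of 4.99 for Krt26, 3.37 for Padi3, an enzyme that modifies trichohyalin, and -0.11 for Krt72. Gata3, a transcription factor that the inner root sheath needs and a known Notch target, moved apart from the rest of the list: it read 9.66, 9.41 and 9.52 in wild-type and 7.96, 7.65 and 8.50 in transgenic epidermis. In dermis it read 7.97, 7.52 and 7.17 against 5.82, 6.27 and 5.49. Gata3 fell by 1.49 in epidermis (SE 0.30, limma adjusted p = 0.0178), and its dermal change of -1.69 just missed the threshold (SE 0.30, adjusted p = 0.0515).

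The summed linear signal of the 9 tested sheath genes was 260 to 366 in wild-type dermis and 2461 to 4385 in transgenic dermis. In epidermis it was 936 to 1169 in wild-type and 538 to 844 in transgenic arrays. Such a sum weighs bright genes most, and Gata3, which fell in epidermis, is among them. The mean log2 signal of the same 9 genes was 5.51, 3.74 and 4.66 in wild-type and 5.89, 4.89 and 4.999 in transgenic epidermis, which overlap. In dermis this mean was 3.13, 3.16 and 2.91 against 8.19, 7.91 and 7.31. Most of the 9 genes passed the filter through the transgenic dermis arrays. Neither their sum nor their mean in dermis is therefore support for a rise of the list. The sum of the 12 tested hair shaft genes was 337 to 490 in wild-type and 389 to 544 in transgenic dermis, and these ranges overlap. Of the 12, 11 had a positive difference, with a median of 0.83, 0 passed the test in dermis and 1 fell in epidermis. Of all 13797 tested genes, 7146 had a positive difference, the median was 0.04, and 1.1% fell in epidermis. Of the 8 listed shaft genes that were not tested, 2 had no probe set named for them alone and 6 were below the filter on low signal. These 6, keratins and keratin-associated proteins of the hair, had dermal changes of 4.77 for Krtap8-1, 3.12 for Krtap3-1, 2.81 for Krt82, 2.21 for Krt35, 2.09 for Krt33a and 1.93 for Krt86. Their signals were dim: Krtap3-1 read 1.59, -0.27 and 3.18 in wild-type and 5.04, 4.23 and 4.6 in transgenic dermis, and 5.57, 3.22 and 4.89 against 1.05, 1.62 and 1.5 in epidermis, so its groups were apart in both layers, in opposite directions. In whole skin the mean log2 signal of the sheath genes was 2.95, 5.42 and 3.45 in wild-type and 7.29, 6.27 and 3.65 in transgenic arrays. One transgenic whole skin array was thus below a wild-type one, and of the sheath genes named here Krt73 alone passed the test in whole skin (change 4.26, limma adjusted p = 0.00427), while Krt25 read 9.02, 7.79 and -1.43 in the 3 transgenic whole skin arrays. Whether the share of growing follicles in a sample had a part in the dermal values was not tested.

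On the negative side, where the epidermal change lies above the dermal one, the gene nearest the threshold was Krt6a, a keratin of the follicle's companion layer and of wounded epidermis. It read 7.80, 5.67 and 6.80 in wild-type and 11.91, 11.89 and 11.15 in transgenic epidermis, and 8.76, 9.0 and 9.02 in wild-type and 10.01, 10.10 and 10.24 in transgenic dermis. Both layers separated by genotype. Krt6a rose by 4.89 in epidermis (SE 0.41, limma adjusted p = 6.93e-05), its dermal change was 1.19 (SE 0.41, adjusted p = 0.777), and the difference was -3.70 (SE 0.58, adjusted p = 0.0568). Its 2 other probe sets gave differences of -6.39 and -4.84. With 16 added, the difference was called (-3.51, limma adjusted p = 0.021).

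Cthrc1 encodes a secreted protein of healing and remodelling tissue. It read 1.61, 0.78 and 1.65 in wild-type and 8.05, 7.12 and 6.61 in transgenic epidermis, and 4.10, 3.58 and 4.22 in wild-type and 6.04, 4.92 and 5.96 in transgenic dermis. Cthrc1 rose by 5.92 in epidermis (SE 0.51, limma adjusted p = 7.29e-05) with a dermal change of 1.67 (adjusted p = 0.568) and a difference of -4.25 (SE 0.72, adjusted p = 0.0723). The wild-type epidermis values are dim, and with 16 added the difference was -2.13. Kif26b, a kinesin family gene, rose by 3.24 in epidermis (limma adjusted p = 0.000142) with a dermal change of 0.58 and a difference of -2.66 (SE 0.43, adjusted p = 0.0723). Capn2, the catalytic subunit of a calpain protease, rose by 2.32 in epidermis (limma adjusted p = 0.000706) with a dermal change of 0.05 and a difference of -2.27 (SE 0.40, adjusted p = 0.0723). Kif26b and Capn2 were picked after their values were seen, as were all other genes named here beyond the 3 called genes, the 6 largest shared changes in each direction, a preset group that includes Krt6a and Cthrc1, and the members of the lists.

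Acta2, the actin of smooth muscle and of contractile fibroblasts, had changes of opposite sign. It read 6.0, 6.92 and 5.06 in wild-type and 8.75, 8.99 and 8.0 in transgenic epidermis, but 10.77, 11.27 and 10.59 in wild-type and 10.25, 10.35 and 9.52 in transgenic dermis. The groups did not overlap in either layer. Acta2 rose by 2.58 in epidermis (SE 0.42, limma adjusted p = 0.00554), the dermal change was -0.83 (SE 0.42, adjusted p = 0.974), and the difference was -3.42 (SE 0.59, adjusted p = 0.0723). With 16 added it was called (limma adjusted p = 0.043), as 1 of 9 genes called in that setting (0.0652%), and was then the 1 gene sorted as opposite. Its whole skin change was -0.21 (SE 0.10).

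Fibroblast and matrix genes were higher in transgenic epidermis than in wild-type epidermis. Of 29 tested, 11 rose in epidermis and 0 fell, where 1.51% of all tested genes rose and 1.1% fell, and 1 rose in dermis, where 0.0942% of all tested genes did; 0 were called for the difference. At an unadjusted p under 0.05, 12 had a more negative difference and 0 a more positive one, beside 4.47% and 3.6% of all tested genes. The median change over the list was 1.09 in epidermis and 0.33 in dermis, and the median difference was -0.73, while over all tested genes these medians were -0.11, -0.04 and 0.04. Without transgenic dermis replicate 1 the dermal median of the list was 0.56. Among the members, Col5a1, a chain of a fibril-forming collagen, rose by 2.20 in epidermis with a dermal change of 0.36, and Col6a3, a chain of a microfibril collagen, rose by 3.33 with a dermal change of 1.01. Fn1, fibronectin, rose by 2.54 with a dermal change of -0.07, and Pdgfrb, a receptor through which PDGF acts on stromal cells, rose by 2.48 with a dermal change of 1.02. Lrrc15, a membrane protein of activated fibroblasts, rose by 4.22 in epidermis, and its dermal change of 2.58 did not pass the test (limma adjusted p = 0.0809). Pdgfrb and Lrrc15 were also sorted among the genes that changed the same way in both layers. Another probe set of Pdgfrb gave smaller changes, 0.59 in epidermis and 0.21 in dermis.

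Tnc, tenascin C, a matrix protein of wounds, was the 1 member of the list called in each layer on its own. It read 6.83, 6.62 and 5.61 in wild-type and 9.89, 8.72 and 8.93 in transgenic epidermis, and 6.50, 6.95 and 6.81 in wild-type and 9.53, 9.03 and 8.73 in transgenic dermis. Tnc rose by 2.83 in epidermis and by 2.34 in dermis (limma adjusted p = 0.00153 and 0.0257), a difference of -0.48 (95% interval -1.61 to 0.65). The summed signal of the 29 fibroblast and matrix genes was 8511 to 17307 in wild-type epidermis and 19310 to 33692 in transgenic epidermis, both below the 34976 to 66171 of the dermis arrays. The part that dermal cells in the epidermis samples had in these values was not tested. Macrophage genes gave a smaller count: of 22 tested, 2 rose in epidermis, C1qc, a complement component (2.82), and Ctss, a lysosomal protease (1.78), and 0 rose in dermis, beside 1.51% and 0.0942% of all tested genes.

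Genes that keratinocytes switch on in wounds and inflammation were called in epidermis. Of 18 tested genes of alarm and repair, 9 rose in epidermis, 1 of them, Sprr1b, rose in dermis as well, and 0 were called for the difference, beside 1.51% of all tested genes higher in epidermis and 0.0942% in dermis. The median change was 3.51 in epidermis and 1.53 in dermis. At an unadjusted p under 0.05, 3 had a more negative difference, Krt6a, Krt17 and the antimicrobial peptide gene Defb3, and 0 a more positive one, beside 4.47% and 3.6% of all tested genes. Another probe set of Krt17 gave a difference of 1.37, the opposite sign to the -1.41 of the one used. S100a8, a subunit of the inflammatory protein calprotectin, read 7.99, 5.26 and 4.72 in wild-type and 11.70, 12.28 and 10.50 in transgenic epidermis, and 5.43, 4.67 and 3.01 in wild-type and 6.98, 9.90 and 7.98 in transgenic dermis. It rose by 5.51 in epidermis (SE 0.88, limma adjusted p = 0.0051), its dermal change was 3.91 (SE 0.88, adjusted p = 0.19), and the difference of -1.59 had an interval from -4.26 to 1.08. Neutrophils also carry S100a8, and of the 5 tested neutrophil genes S100a8 and S100a9 were the 2 that rose, both in epidermis, while 9 of the 14 listed, among them the neutrophil markers Ly6g and Elane, were not tested.

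Follicle stem cell genes moved in the epidermis in both directions. Of 15 tested, 4 fell in epidermis (Krt15, Lgr6, Fgf18 and Npnt; 1.1% of all tested genes fell), 2 rose (Sox9 and Krt79; 1.51% rose), and 0 passed the test in dermis; 1, Krt15, was called for the difference. At an unadjusted p under 0.05, 7 had a more positive difference and 3 a more negative one (3.6% and 4.47% of all tested genes). The list's median was -1.34 in epidermis and -0.24 in dermis, and -0.40 in dermis without transgenic dermis replicate 1. Its median difference of 1.30 became 0.53 with 16 added. Lgr6, a receptor of follicle and epidermal stem cells, read 7.50, 7.23 and 8.04 in wild-type and 3.80, 4.95 and 2.99 in transgenic epidermis, and 7.50, 8.12 and 8.25 in wild-type and 7.38, 7.68 and 7.35 in transgenic dermis. It fell by 3.68 in epidermis (SE 0.42, limma adjusted p = 0.000706), with a dermal change of -0.49 and a difference of 3.19 (SE 0.60, adjusted p = 0.119). Fgf18, a growth factor of the resting follicle, fell by 2.73 in epidermis with a dermal change of -0.61, and Npnt, a basement membrane ligand made by bulge cells, fell by 2.47 with a dermal change of -0.88.

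Sox9, a transcription factor of follicle stem cells and the outer root sheath, had the reverse pattern. It read 6.88, 7.69 and 7.53 in wild-type and 9.11, 8.86 and 8.66 in transgenic epidermis, and 8.92, 8.78 and 8.84 in wild-type and 8.52, 9.41 and 8.91 in transgenic dermis. Sox9 rose by 1.51 in epidermis (limma adjusted p = 0.0126) with a dermal change of 0.10 and a difference of -1.41 (SE 0.40, adjusted p = 0.416). Krt79, a keratin of the upper follicle and its ducts, rose by 2.17 in epidermis with a dermal change of -0.03. Igfbp3, which binds insulin-like growth factors, fell by 3.90 in epidermis (SE 0.47, limma adjusted p = 0.000706), with a dermal change of -0.44 and a difference of 3.45 (SE 0.66, adjusted p = 0.135). Trpm3, a cation channel gene, fell by 6.24 in epidermis, from 6.76, 5.68 and 6.35 to 1.09, -0.69 and -0.32, with a dermal change of -1.09 and a difference of 5.14 (SE 0.87, limma adjusted p = 0.0723). The probe sets of Trpm3 disagreed: 2 others above the filter gave epidermal changes of -3.75 and -0.038 and differences of 3.60 and -0.85.

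The general keratinocyte lists gave a narrower picture. Of 12 basal keratinocyte genes, 2 fell in epidermis, Krt15 and Col17a1, a collagen of the hemidesmosome (-1.19), where 1.1% of all tested genes fell, and 0 passed in dermis; their median was -0.50 in epidermis and -0.62 in dermis. Krt14, whose promoter drives the transgene, read 13.03, 12.04 and 12.70 in wild-type and 12.05, 12.38 and 12.09 in transgenic epidermis, and 11.46, 11.51 and 11.39 against 11.25, 11.03 and 11.10 in dermis. Its changes of -0.42 and -0.33 did not pass the test, and the difference was 0.09 (95% interval -0.75 to 0.93), with -0.72 and -0.23 from its 2 other probe sets. Of 29 differentiated keratinocyte genes, 3 rose in epidermis, Flg (2.90), which encodes filaggrin, Rptn (3.33), a cornified envelope protein, and Casp14 (2.54), a protease of cornification, where 1.51% of all tested genes rose, and 0 rose in dermis.

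**Figure D3:**
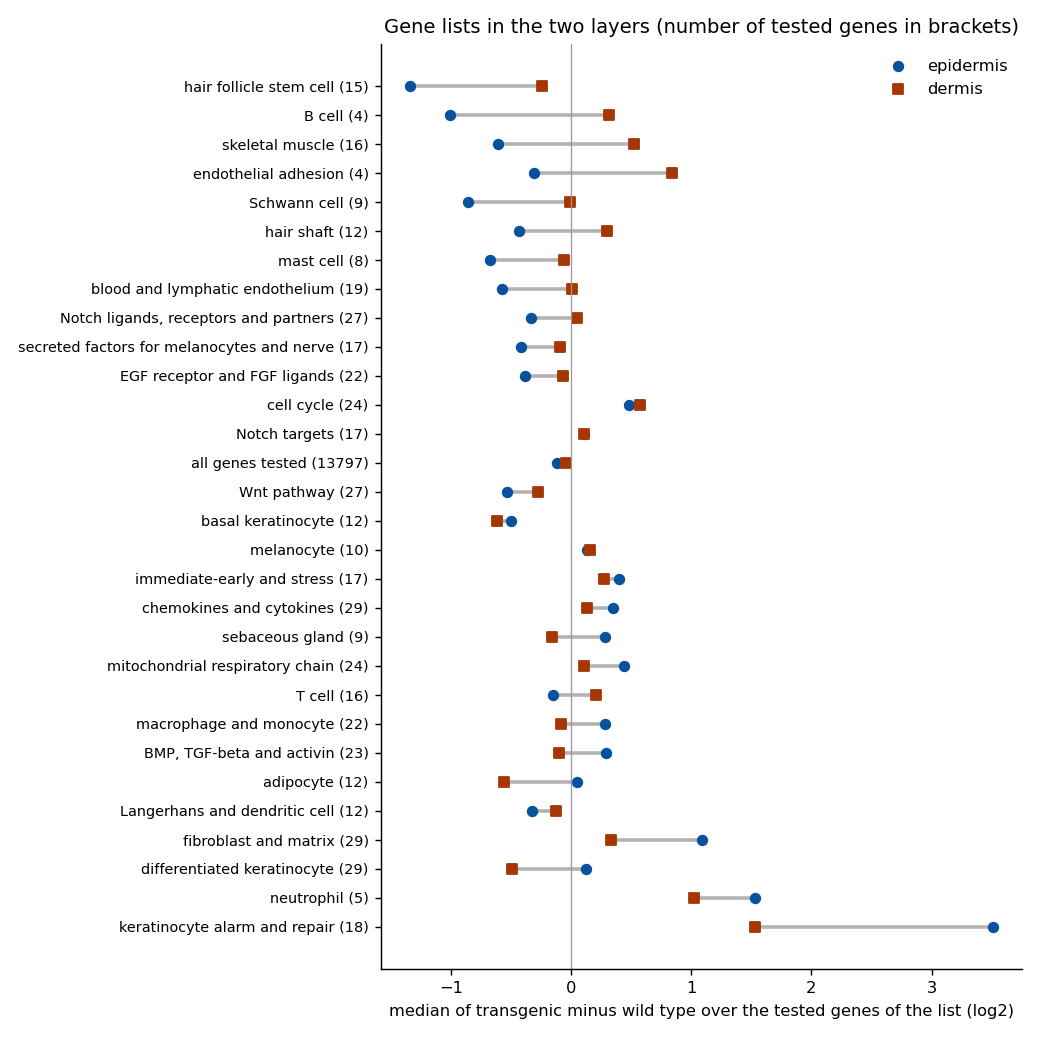
Median transgenic minus wild-type change (log2, x axis) of the tested genes of 29 lists and of all tested genes, in epidermis (blue circles) and dermis (brown squares), ordered by the median difference; lists share some genes, and the inner root sheath list is left out because most of its members passed the filter through transgenic dermis alone. Keratinocyte alarm and repair genes lie farthest right in both layers with the epidermal median above the dermal one, 3.51 against 1.53, and follicle stem cell genes lie farthest left in epidermis, at -1.34.

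The second class is genes that changed the same way in both layers: the average of the 2 changes was called (1.82% of the genes tested), both changes had one sign with an unadjusted p under 0.05, and the difference was not called. It held 137 genes, 72 higher (0.522% of the genes tested) and 65 lower (0.471%) in transgenic skin. The test of each layer alone called 360 genes in epidermis (2.61%), 208 higher and 152 lower, and 16 in dermis (0.116%), 13 higher (0.0942%) and 3 lower (0.0217%). Of these, 7 were called in both layers, which is 7 of 360 and 7 of 16, and all 7 changed the same way: Gjb2, Sprr1b, Krt73 and Tnc rose, and Il20ra, Mt4 and Slc16a9 fell. Calling a change shared does not show it to be equal: for 4 of the 137 genes, Gjb5, Tfap2e, Flrt1 and Klf5, the 95% interval of the difference lay within -1 and 1. In 36 of the 137 (26.3%) the difference had an unadjusted p under 0.05 (limma), beside 8.07% of all tested genes. Krt6a and Cthrc1, named above for their negative differences, were also sorted into this class. Several genes of the class are keratinocyte genes, and the dermis arrays held keratinocyte RNA, as given above. The part that keratinocytes in the dermis samples had in the shared changes was not tested.

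Gjb2 encodes connexin 26, a gap junction protein of activated keratinocytes. It read 7.38, 6.78 and 6.34 in wild-type and 10.68, 10.70 and 10.21 in transgenic epidermis, and 5.69, 5.52 and 5.99 in wild-type and 8.87, 8.21 and 8.74 in transgenic dermis. The genotypes stood wide apart in both layers. Gjb2 rose by 3.70 in epidermis and 2.87 in dermis (SE 0.30 each, limma adjusted p = 6.93e-05 and 0.00139), with a difference of -0.82 (95% interval -1.74 to 0.09). Sprr1b, a precursor of the cornified envelope, read 7.97, 7.10 and 5.06 in wild-type and 11.53, 11.58 and 10.96 in transgenic epidermis. In dermis it read 3.48, 1.79 and 2.68 against 6.47, 8.39 and 5.82. Sprr1b rose by 4.64 in epidermis and 4.24 in dermis (limma adjusted p = 0.00429 and 0.035), with an interval of the difference from -2.58 to 1.77. Lce3f, a late cornified envelope gene, and Krt6b, a sister of Krt6a, were also sorted here, with epidermal changes of 4.74 and 5.88 and dermal changes of 4.61 and 3.18, with an SE of 1.5 for Lce3f and 1.2 for Krt6b in each layer; the Krt6b values overlapped in dermis.

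Saa3, an acute-phase serum amyloid, had the larger change in dermis. It read 5.13, 3.65 and 1.99 in wild-type and 9.63, 11.21 and 11.38 in transgenic dermis, and 3.51, 3.32 and 5.17 in wild-type and 6.32, 8.93 and 5.66 in transgenic epidermis. The groups were apart in both layers, by less in epidermis. Saa3 rose by 7.15 in dermis (SE 0.88, limma adjusted p = 0.00322), its epidermal change of 2.97 did not pass the test (adjusted p = 0.098), and the difference of 4.18 was not called (95% interval 1.51 to 6.85, adjusted p = 0.427). Vcam1, the adhesion molecule that leukocytes bind on vessels and stroma, rose by 2.12 in dermis (SE 0.31, limma adjusted p = 0.0118), from 5.47, 6.43 and 6.46 to 8.46, 8.08 and 8.19. Its epidermal change was 1.07 (adjusted p = 0.0946). The probe sets of Vcam1 disagreed, since 2 others gave dermal changes of -0.11 and 1.26 and epidermal changes between -0.62 and 0.34. Serpina3n, a protease inhibitor of the acute phase, rose by 2.49 in dermis (limma adjusted p = 0.00665) with an epidermal change of 1.03, and Chodl, a lectin-like membrane protein gene, rose by 3.60 in dermis (limma adjusted p = 0.0405) with an epidermal change of 0.54. In whole skin Saa3, Vcam1, Serpina3n and Chodl all rose, by 5.89, 1.69, 1.74 and 2.08 (limma adjusted p = 0.0239, 0.0059, 0.0186 and 0.00816).

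Among the shared decreases, Il20ra, a receptor subunit for the cytokines of the interleukin-20 group, read 7.46, 7.46 and 7.58 in wild-type and 5.52, 4.93 and 5.12 in transgenic epidermis. In dermis it read 6.05, 5.76 and 6.62 against 3.84, 3.27 and 1.13. It fell by 2.31 in epidermis and by 3.40 in dermis (limma adjusted p = 0.0442 and 0.0287). Mt4, the metallothionein of stratified epithelia, read 10.87, 11.07 and 11.26 in wild-type and 9.61, 8.94 and 9.24 in transgenic epidermis, and 8.99, 8.23 and 7.86 against 6.19, 6.22 and 6.21 in dermis. It fell by 1.80 in epidermis and by 2.15 in dermis (limma adjusted p = 0.0051 and 0.00632), with a difference of -0.35 (95% interval -1.22 to 0.53).

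Smoc2, which encodes a matricellular protein, fell by 3.59 in epidermis (SE 0.36, limma adjusted p = 0.000168), and its dermal change was -1.31 (SE 0.36, adjusted p = 0.388). Akr1c19, an aldo-keto reductase gene, and Vit, a gene for a matrix protein, fell in epidermis by 3.05 and by 3.51, with dermal changes of -2.41 and -1.79. Their wild-type epidermis values were 3.99 to 4.95 and 2.37 to 3.95, near the bottom of the scale, and with 16 added the differences between layers, 0.64 and 1.73, became -0.55 and -0.86. Guca2a, which encodes the peptide guanylin, had changes of -2.58 and -2.26, and Fzd10, a Wnt receptor gene, had changes of -1.92 and -2.51; neither passed the test in a layer alone. Another probe set of Fzd10 gave -0.88 and -0.095.

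**Figure D4:**
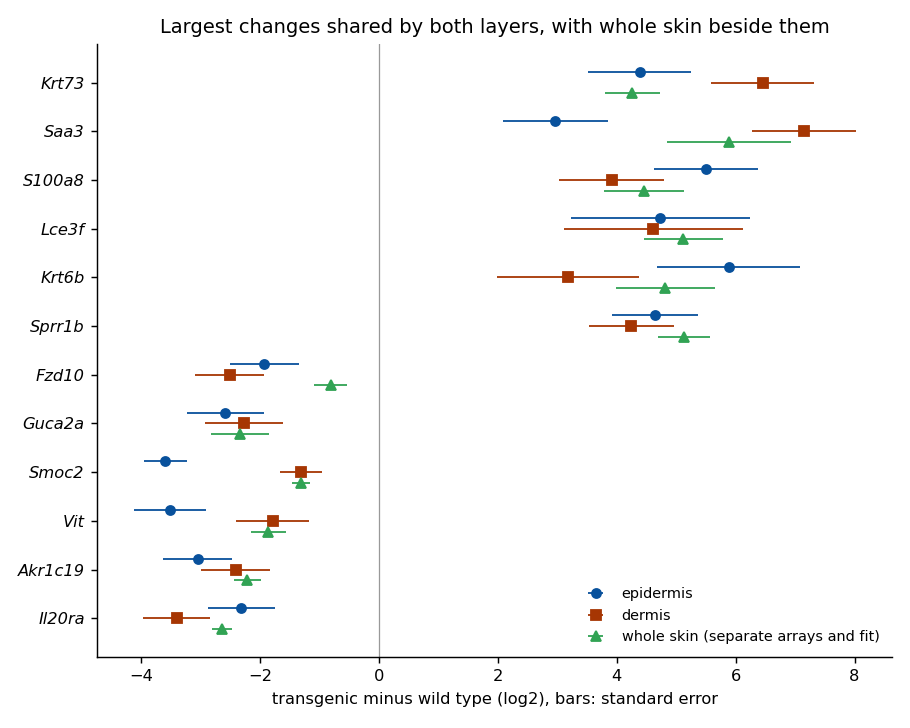
Transgenic minus wild-type change (log2, x axis) of the 6 genes with the highest and the 6 with the lowest average change among those sorted as shared, in epidermis (blue), dermis (brown) and whole skin (green), with standard errors from limma and 3 arrays per group. The epidermis and dermis points lie on one side of 0 because the genes were chosen so. The whole skin points of the 12 genes, which took no part in the choice, lie on the same side. Smoc2 shows the widest gap between the layers relative to its error.

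Whole skin arrays took no part in sorting the genes, although the labels do not say whether they came from other animals. Of the 72 shared higher genes, all 72 had a positive change in whole skin and 47 were called higher there, where 1.64% of all tested genes were. Of the 65 shared lower genes, all 65 had a negative change and 29 were called lower, where 1.01% of all tested genes were. For genes called in epidermis, 195 of the 208 higher ones had a positive and 145 of the 152 lower ones a negative change in whole skin, with 75 and 40 called. Of the genes called for a difference between the layers, 0 of 3 were called in whole skin (limma, adjusted p = 0.496, 0.756 and 0.732 for Krt15, Gem and Prr9).

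Most genes called in one layer were not called for the difference between layers. Of 353 genes called in epidermis and not in dermis, 2 had a called difference, and of 9 called in dermis and not in epidermis, 1 did. Of the 208 genes called higher in epidermis, 173 (83.2%) also had a positive dermal change, with a median of 0.40 against 1.99 in epidermis, and 53 had an unadjusted p under 0.05 in dermis with the same sign and 0 with the opposite sign, beside 1.99% of all tested genes on the positive and 3.24% on the negative side. Of the 152 called lower, 125 (82.2%) had a negative dermal change, with a median of -0.49 against -1.83, and 42 had an unadjusted p under 0.05 with the same sign and 1, Tgfbr3, with the opposite sign. Tgfbr3, a co-receptor for TGF-beta, fell by 1.52 in epidermis with a dermal change of 0.68, which was -0.15 for another probe set. Among all tested genes, 47.7% of those above 0 and 55.2% of those below 0 in epidermis had the same sign in dermis. The 2 layers share no array, but the labels do not say whether they share animals, and what lies behind these shares was not tested. Across all 13797 genes the epidermal and dermal changes had a Pearson correlation of 0.18 and a Spearman correlation of 0.075, and the genes share their arrays and are not independent. Without transgenic dermis replicate 1 these correlations turned to -0.026 and -0.14. The correlations were not computed without replicate 3, and the list medians in this text are likewise given without replicate 1 only. This choice does not mark replicate 1 as the atypical array.

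No gene was called with opposite changes on the 12 arrays (limma; 1114 genes at an unadjusted p under 0.05 for the difference, of either kind). By the arrays themselves, 31 genes (0.225%) had transgenic values all above wild type in epidermis and all below it in dermis, and 29 (0.21%) the reverse. Genes whose arrays separated the same way in both layers were 139 upwards (1.01%) and 205 downwards (1.49%). In either direction 3184 genes (23.1%) separated by genotype in epidermis and 1246 (9.03%) in dermis. The sorting into opposite ways depended on 1 array: without transgenic dermis replicate 1, 54 genes (0.391%) were called for the difference, 24 of them as opposite, 20 as epidermis alone, 5 as dermis alone and 5 as unequal changes of the same direction. The 3 genes called on all arrays were among the 54, with Gem now sorted as opposite because its dermal change became 0.66. Without transgenic dermis replicate 3, 0 genes were called and 772 had an unadjusted p under 0.05.

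Of the 24 genes sorted as opposite without that array, Efemp1, which encodes an elastic-fibre protein, had an epidermal change of -1.93 and a dermal one of 0.84, and Lgals7, a galectin of keratinocytes, had changes of 1.08 and -1.48. Crabp2, a retinoic acid carrier of keratinocytes, had 1.34 and -1.37. On all arrays the dermal changes of these genes were 0.44, -0.94 and -0.62. Cxcl1, a neutrophil-attracting chemokine, was sorted as unequal, with changes of 1.19 and 4.21; on all arrays it read 6.33, 5.94 and 5.55 in wild-type dermis and 6.69, 10.43 and 9.87 in transgenic dermis, so replicate 1 alone lay near wild type. Transgenic dermis replicates 1 and 3 had residual SDs of 0.730 and 0.716, yet leaving them out gave 54 and 0 called genes. What lies behind these unlike counts was not tested, and the arrays do not show which count is nearer the truth. Leaving out wild-type epidermis replicate 2 gave 15 called genes, and each of the other 10 arrays gave 0 to 4.

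**Figure D5:**
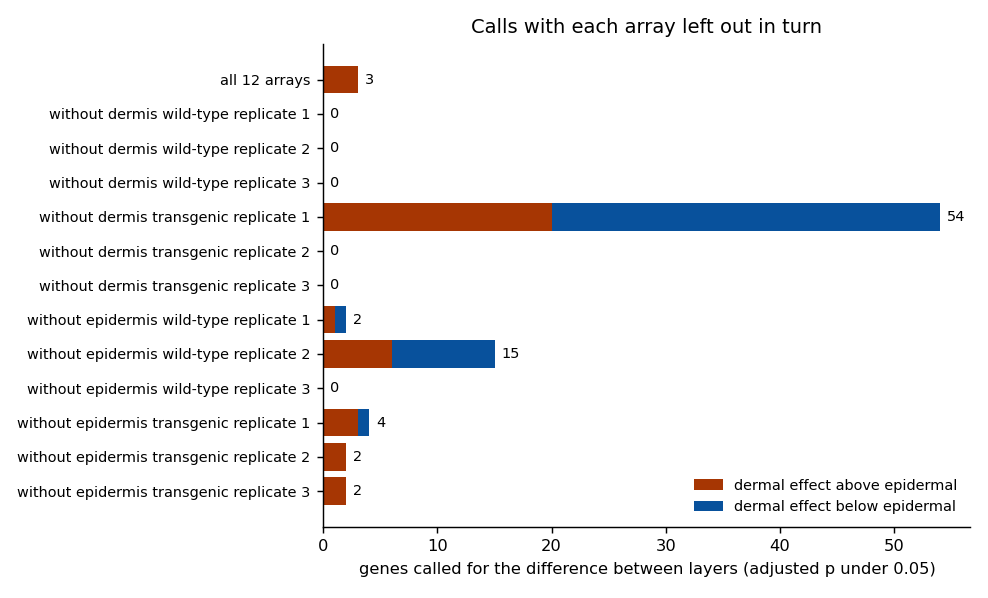
Number of genes called for the difference between layers (x axis; limma, adjusted p under 0.05) with all 12 arrays and with each array left out in turn, split into genes whose dermal change lay above (brown) and below (blue) the epidermal one. All 12 arrays gave 3 genes, leaving out transgenic dermis replicate 1 gave 54, leaving out wild-type epidermis replicate 2 gave 15, and 6 of the 12 omissions gave 0.

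None of the Notch pathway genes was called for the difference, on intervals too wide to show that they changed alike (limma; 1 of 17 targets and 3 of 27 ligands, receptors and partners had an unadjusted p under 0.05, beside 8.07% of all tested genes). Of 17 tested Notch target genes, 1 rose in epidermis, Ccnd1, a cyclin of the first growth phase (1.14), 2 fell there, Gata3 and Lfng, and 0 passed in dermis, beside 1.51% of all tested genes higher and 1.1% lower in epidermis. The median difference was 0.12, and 0.014 without transgenic dermis replicate 1. For Ccnd1, 2 other probe sets gave epidermal changes of -0.72 and 0.62. Heyl, a repressor that Notch activates directly, read 0.59, 3.13 and 3.87 in wild-type and 6.04, 5.28 and 4.44 in transgenic epidermis, and 4.03, 5.49 and 3.76 against 8.27, 7.14 and 7.17 in dermis. Its changes were 2.72 and 3.10 (SE 0.76 each), with limma adjusted p of 0.0806 and 0.272 in the layers and 0.0129 for their average, so it was sorted as shared; whole skin gave 2.40 (adjusted p = 0.000407). Hes1, another direct target, had changes of -0.34 and -0.00 (SE 0.39 each), and its groups overlapped in both layers.

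Of 27 tested Notch ligands, receptors and partners, 3 fell in epidermis, where 1.1% of all tested genes did, and 0 passed in dermis; the median difference was 0.48. Dll1, a ligand of basal keratinocytes, read 8.65, 8.57 and 9.05 in wild-type and 6.32, 6.18 and 6.52 in transgenic epidermis, and 8.23, 7.79 and 8.33 against 7.46, 7.20 and 6.92 in dermis. It fell by 2.42 in epidermis (SE 0.26, limma adjusted p = 0.000307), its dermal change was -0.93 (SE 0.26, adjusted p = 0.415), and the difference was 1.49 (SE 0.36, 95% interval 0.71 to 2.27, adjusted p = 0.292). The others that fell were Jag2, a ligand (-1.26), and Lfng, a sugar transferase that tunes the receptor (-1.80), with dermal changes of -0.59 and -0.98. Another probe set of Jag2 gave -0.29 in epidermis and -1.0 in dermis, which turns the sign of its difference. Jag1, a ligand that is also a Notch target, had changes of 0.78 in epidermis and 0.05 in dermis and a difference of -0.74 (95% interval -1.40 to -0.07, limma adjusted p = 0.596), while 2 other probe sets gave differences of -0.33 and 0.059.

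Secreted signals of keratinocytes gave calls in epidermis. Of 29 tested chemokines, cytokines and their receptors, 2 rose and 3 fell in epidermis, beside 1.51% and 1.1% of all tested genes. In dermis 1 rose, Saa3, and 1 fell, Il20ra, beside 0.0942% and 0.0217% of all tested genes. The list held 40 genes, and some were below the filter on low signal. Among these, Tnf had changes of 3.98 in epidermis and -2.27 in dermis, and Cxcl5 had changes of -0.20 and 4.75. Tslp, an alarm cytokine of keratinocytes, read 4.74, 4.55 and 3.69 in wild-type and 6.35, 7.83 and 6.32 in transgenic epidermis, and 5.04, 5.79 and 5.14 against 5.44, 5.76 and 5.35 in dermis. It rose by 2.50 in epidermis (limma adjusted p = 0.0109) with a dermal change of 0.19 and a difference of -2.31 (SE 0.64, adjusted p = 0.402). Il33, an alarm cytokine stored in nuclei, and Cxcl14, a chemokine of healthy epidermis, fell in epidermis by 1.98 and by 1.5, with dermal changes of -0.55 and -0.35. Cxcl13, a chemokine that draws B cells, had changes of 0.37 in epidermis and 2.72 in dermis, neither of which passed, and rose by 2.36 in whole skin (limma adjusted p = 0.00152).

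Edn1, endothelin 1, which acts on melanocytes and vessels, read 3.92, 5.28 and 2.21 in wild-type and 7.41, 7.23 and 7.56 in transgenic epidermis, and 4.87, 6.61 and 5.67 against 5.65, 5.54 and 4.98 in dermis. It rose by 3.59 in epidermis (SE 0.63, limma adjusted p = 0.00865), with a dermal change of -0.32 and a difference of -3.92 (SE 0.89, adjusted p = 0.253). The melanin enzyme gene Dct rose by 2.33 in epidermis (limma adjusted p = 0.0434), from 1.98, 2.85 and 3.61 to 6.45, 4.73 and 4.24, with a dermal change of 0.79; it was the 1 of 10 melanocyte genes that passed in either layer. Of 23 tested genes of the BMP, TGF-beta and activin pathways, 2 rose in epidermis, the activin subunits Inhba (3.44) and Inhbb (3.47), and 2 fell, the ligands Bmp4 (-2.15) and Bmp2 (-1.47), while 0 passed in dermis. Of 27 tested Wnt pathway genes, 1 rose and 5 fell in epidermis and 0 passed in dermis. For both of these lists the shares over all tested genes were 1.51% higher and 1.1% lower in epidermis. Another probe set of Inhbb gave an epidermal change of 0.41 and a dermal change of 0.33. Rspo3, which amplifies Wnt signals, fell by 3.93 in epidermis with a dermal change of -0.51.

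Some of the remaining lists gave calls in epidermis. Of 17 immediate-early and stress genes 3 rose, and of 22 EGF receptor and FGF ligand genes 1 rose and 3 fell. Of 17 genes of secreted factors for melanocytes and nerve, 1 rose and 2 fell. Over all tested genes 1.51% rose and 1.1% fell in epidermis. In dermis 0 genes of these lists passed. The lists that follow gave 0 calls in either layer. Of 24 cell cycle genes 0 passed in either layer, with medians of 0.48 in epidermis and 0.57 in dermis. Of 24 genes of the mitochondrial respiratory chain 0 passed in either layer, and their median difference was -0.29. At an unadjusted p under 0.05 for the difference 7 were negative and 1 was positive, beside 4.47% and 3.6% of all tested genes. Of 16 skeletal muscle genes, 12 adipocyte genes, 9 Schwann cell genes and 4 B cell genes, 0 passed in either layer. Over all tested genes 2.61% were called in epidermis and 0.116% in dermis, so 0 calls in lists this short lies near that share. The median difference was 1.09 for muscle and 1.29 for B cell genes, whose signals scattered between arrays of one group. The median difference of the muscle genes was 0.69 without transgenic dermis replicate 1, and that of the B cell genes was 0.69 with 16 added.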

How the data were processed

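RNA from 12 dermis and epidermis samples was measured on Affymetrix arrays after amplification with a whole-transcript kit, per the labels' protocols. Per the submitters' processing notes the authors used MAS5, version not given; the deposited values were taken as log2 signal, a scale read from the numbers. Members and gene lists were chosen with earlier results of these data known. GEO's platform annotation named the probe sets: 34945 of 45037 had 1 symbol, 932 several and 9160 none, and 34741 matched RefSeq through Entrez identifiers. Each gene was read from whichever probe set had the highest 12-array mean, and was tested if that mean exceeded log2 3.23, the 30th percentile (13797 of 18193 genes). The 4 groups were fitted with limma 3.58.1 in R 4.3.3 (8 residual degrees of freedom, eBayes with trend) and p-values adjusted by Benjamini-Hochberg over all tested genes; the fit was tested on simulated data. Whole skin had its own fit of 6 arrays. Named genes were all genes called for the difference, the 6 largest shared genes in each direction with a group mean of at least 6, a preset list, and genes named after their values were seen. Motifs were sought in the 250 bases before a start; bases after it were not used. The number of arrays limits the precision. Alternatives were scaling, filter, probe set choice, added signal, all 18 arrays, blocks, array weights and leaving out arrays.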

Additional observations from a re-analysis of the deposited data

Results flagged for a closer look

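The genotype effect differed between dermis and epidermis by the test of the difference itself for 3 genes. The log2 difference, dermis minus epidermis, was 3.29 for Krt15, 2.72 for Gem and 4.26 for Prr9 (limma, adjusted p = 0.0421 for each). Krt15 and Gem were lower in 3 of 3 transgenic epidermis arrays than in every wild-type epidermis array, and Prr9 was higher in 3 of 3 transgenic dermis arrays than in every wild-type dermis array. Over 24 alternative settings all 3 kept their sign: Krt15 ranged from 2.83 to 3.65 and was called in 13, Gem from 2.30 to 2.98 and was called in 12, and Prr9 from 3.63 to 4.76 and was called in 11, with adjusted p-values up to 0.189 for each.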

How the results depend on the processing

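Genes called for the difference between layers numbered 3, with 9 when 16 was added on the linear scale, 0 after quantile normalization (1112 at an unadjusted p under 0.05; limma), 5 with a common 75th percentile, 7 with the mean of all probe sets, 0 with every probe set on its own (1940 unadjusted), 34 with all 18 arrays, 12 with a random replicate block within genotype and 1643 with array weights. Leaving out single arrays gave 0 to 54; leaving out transgenic dermis replicate 1 and wild-type epidermis replicate 2 together, chosen after seeing the data, gave 1418. Genes changed in one layer alone (3) became 7 with 16 added, 0 after quantile normalization, 6 with the mean of probe sets, 0 with every probe set, 21 with 18 arrays, 9 with the random block, 1056 with weights, 0 to 25 with single arrays out and 782 with both out. Opposite genes (0) became 1 with 16 added, 6 with 18 arrays, 1 with the random block, 554 with weights, 0 to 24 with single arrays out and 625 with both out. Genes of the same direction (137) became 329 with 18 arrays, 522 with weights, 78 to 180 with single arrays out and 224 with both out. Epidermal calls (360) became 1027 with 18 arrays, 1613 with weights, 110 to 628 with single arrays out and 1611 with both out. Dermal calls (16) became 30 with 16 added, 37 with 18 arrays, 895 with weights, 7 to 114 with single arrays out and 147 with both out. Average calls (251) became 727 with 18 arrays, 1286 with weights, 131 to 338 with single arrays out and 486 with both out. Whole skin calls (365) became 37 with 18 arrays and 92 to 369 with single arrays out. Array weights ran from 0.287 to 4.91 and rest on 3 arrays a group, with a warning that their fit had not converged; the cause of these changes was not tested. With the replicate number as a block, the counts were 1 for the difference, 0 for one layer alone, 1 for opposite ways, 237 in epidermis and 239 in whole skin. The deviations of same-numbered dermis and epidermis arrays correlated at 0.04, -0.07 and 0.00 in wild type and 0.42, 0.19 and -0.03 in transgenic skin, which is above 0.1 in 2 of 6 pairs; the numbers were therefore not used to pair the samples, and whether layers of one number came from one animal is not settled by these values. Higher genes made up 57.8% of epidermal calls, 66.7% after quantile normalization and 70.8% with the 75th percentile, where the median epidermal change of all genes moved from -0.11 to 0.03 and -0.00; for the average the shares were 55.4%, 62.7% and 67.4%. The sign of the difference, none of them called, turned with 16 added for Krt73 (-0.015), Il20ra (0.054), Akr1c19 (-0.55), Vit (-0.86) and Fzd10 (0.61), after quantile normalization for Krt14 (-0.50) and Heyl (-0.084), with the mean of probe sets for Fzd10 (0.10), Krt14 (-0.29) and Tnc (0.12), with weights for Sprr1b (0.060) and Gata3 (0.010), and with both arrays out for Heyl (-0.29). With single arrays out the ranges crossed 0: Lce3f -2.04 to 1.69, Sprr1b -1.15 to 0.42, Gata3 -0.40 to 0.033, Guca2a -0.34 to 1.02, Krt14 -0.13 to 0.37, Heyl -0.29 to 1.35.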
